A study of Homo sapiens with 4 samples.

Results

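CD44, the cell surface receptor for hyaluronan, was followed here at the level of its single transcripts. All 42 transcripts listed under the gene symbol CD44 (ENSG00000026508) were taken, of 195700 transcripts in the deposited tables. The cells were T24, a human bladder carcinoma line, and CD44 was examined because the gene encodes many protein forms that differ in their extracellular part. EV and TET1-CD groups of stable lentiviral lines were compared by RNAseq, with 2 libraries each. EV cells, which the labels call control, carried the empty vector. TET1-CD cells carried the catalytic domain of TET1, the enzyme that oxidises 5-methylcytosine to 5-hydroxymethylcytosine. Both groups were selected with puromycin and grown in the same medium, and their source is given as T24_induced. Nothing in the labels shows whether the 2 libraries of a group came from separate cultures or how many clones each line held, so p-values measure the spread between these libraries, which may be technical.

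The CD44 gene has constant exons at both ends and, between them, a block of variable exons that splicing can include or leave out. Joining the constant exons directly gives the standard form, CD44s, which is widespread in mesenchymal and blood cells, whereas epithelial cells often include variable exons such as v8 to v10. The variable exons lengthen the stem of the receptor next to the membrane and bring sites for sugar chains and growth factor binding, for example the heparan sulfate site of v3. The splicing regulators ESRP1 and ESRP2 favour inclusion of variable exons in epithelial cells.

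On GRCh37 the gene lies on the + strand at chr11:35160417-35253949. Exons were numbered 1 to 18 along the longest model, ENST00000428726, in which exons 6 to 14 are v2 to v10. Exon 5 is at chr11:35211382-35211612, exon 15 at chr11:35236399-35236461, v3 at chr11:35219668-35219793, v8 at chr11:35229652-35229753 and v10 at chr11:35232793-35232996, all in the coding part. Exon 16 is at chr11:35240863-35240934, exon 17, which encodes the membrane-spanning segment, at chr11:35243201-35243279, and exon 18, which holds the end of the coding part and the untranslated end, at chr11:35250676-35253949. The joins that tell the main transcripts apart are shown because the results below turn on them. Each line gives the last 30 bases of the upstream exon in lower case and the first 30 bases of the downstream exon in capitals. They were read from GRCh37 and found in the GENCODE transcript of that structure. The join of exon 5 to exon 15 was found in 3 CD44 transcripts, not in all those called standard below. That of exon 5 to v8 was found in 2 and that of exon 5 to v3 in 4, so the transcript named there is an example.
Exon 5 to exon 15, standard forms: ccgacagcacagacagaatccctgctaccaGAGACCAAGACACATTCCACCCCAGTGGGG
Exon 5 to v10, ENST00000434472: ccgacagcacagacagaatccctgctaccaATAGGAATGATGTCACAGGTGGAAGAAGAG
Exon 5 to v8, ENST00000433892: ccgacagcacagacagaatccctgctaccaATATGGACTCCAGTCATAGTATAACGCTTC
Exon 5 to v3, ENST00000415148: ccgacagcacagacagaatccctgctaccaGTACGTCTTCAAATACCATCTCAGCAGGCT
Exon 2 to exon 4, ENST00000425428: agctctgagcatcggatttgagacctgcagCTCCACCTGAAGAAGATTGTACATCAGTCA
Exon 16 to exon 17, most forms that reach the membrane: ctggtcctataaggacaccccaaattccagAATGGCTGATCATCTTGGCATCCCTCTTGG
Exon 16 to exon 18, ENST00000525469: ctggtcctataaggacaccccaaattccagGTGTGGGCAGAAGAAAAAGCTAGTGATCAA

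Exon 17 itself, the exon that ENST00000525469 lacks, is 79 bases long, which leaves 1 base over when divided into codons, so its omission shifts the reading frame. Its sequence is shown because that transcript changed the most.
Exon 17: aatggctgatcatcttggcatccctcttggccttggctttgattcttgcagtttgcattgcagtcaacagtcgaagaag

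Of the 42 transcripts, 38 were found in GENCODE release 44 on GRCh37, among them 25 annotated as protein coding, 9 with a retained intron and 1 as a target of nonsense-mediated decay. The 4 not found held at most 30.99 expected counts in a library. A transcript was called standard where it crossed the variable region without any variable exon (7 transcripts), variant where it crossed into or over that region with variable exons (20) and neither otherwise (15, the 4 unmatched ones included). Only 7 of the 20 variant transcripts had constant exons on both sides. The full v2 to v10 form, ENST00000428726, was 1 of 6 transcripts listed at 0 in all 4 libraries.

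**Figure D1:**
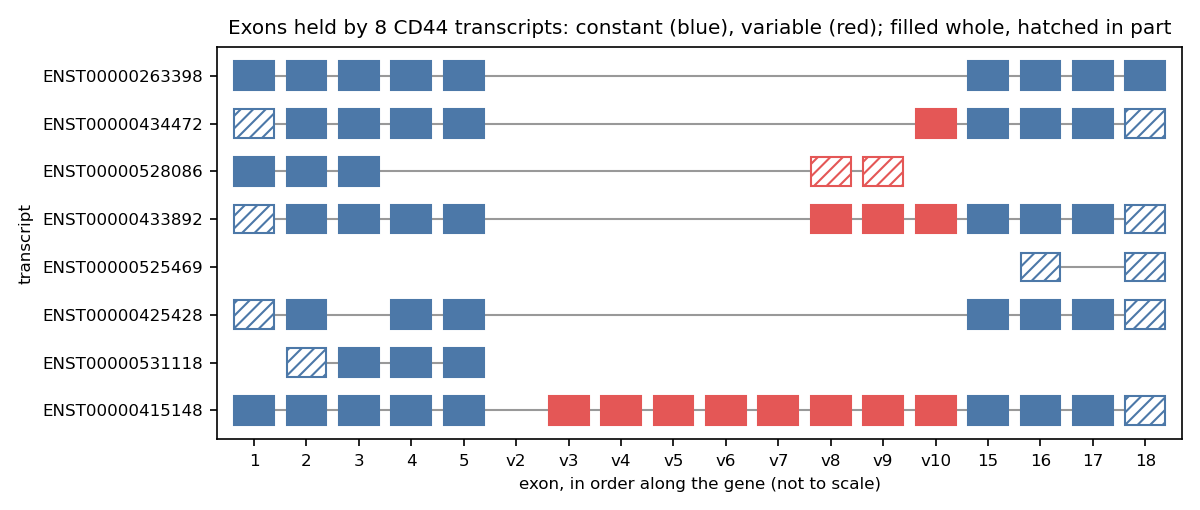
Exons held by 8 CD44 transcripts, with exons in order along the x axis (not to scale) and transcripts on the y axis; blue boxes are constant and red boxes variable exons, filled where the whole exon is in the GENCODE model and hatched where part of it is. The 7 upper rows are the transcripts with at least 1% of the gene's counts in any library, and ENST00000525469 is the one that joins exon 16 to exon 18.

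The libraries held between 17442143 and 20295266 expected counts, an estimated number of fragments per transcript that need not be whole. TET1, the label check, had 111 and 83 counts in EV, against 2939 and 3310 in TET1-CD. The epithelial keratins KRT7, KRT8 and KRT18 each lay between 395.6 and 697 FPKM (fragments scaled to transcript length and to library size), while KRT5 and KRT20 were listed at 0. The uroplakins UPK1A, UPK1B, UPK2, UPK3A and UPK3B did not exceed 1.83 FPKM. Of the 10 urothelial differentiation markers, PPARG (11.35 to 13.02 FPKM), FOXA1 (7.78 to 11.16) and ELF3 (3.47 to 5.53) exceeded 1 FPKM in all libraries. The mesenchymal-type marker VIM was lower in both TET1-CD libraries, at 1692 and 1837 FPKM in EV against 1343.7 and 1374 in TET1-CD. KRT7 was higher in both, at 544 and 549.5 against 697 and 687. KRT18, KRT19 and EPCAM were likewise higher and FN1 likewise lower. Other members did not follow. KRT8 had 495 and 464 against 467 and 445, and ZEB1 14.0 and 9.81 against 12.6 and 15.4, both with overlapping groups. TP63, at most 0.05 FPKM, was lower. The part of these markers in the CD44 values was not tested. The leukocyte marker PTPRC was at most 0.02 FPKM. The 4 fibroblast markers summed to between 1.53 and 1.68 FPKM in EV and between 3.81 and 4.88 FPKM in TET1-CD, mostly COL1A1, and the part of these genes was likewise not tested.

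CD44 was among the most abundant genes, ranking 35 to 40 by counts of 57879 genes in each library. It had 32445 and 28985 counts in EV, against 25769 and 27480 in TET1-CD. These were 0.160% and 0.166% of all counts in EV, against 0.147% and 0.141% in TET1-CD. Both TET1-CD shares lay below both EV shares. After TMM normalization CD44 had 30608 ± 946 counts in EV, against 26799 ± 884 in TET1-CD (SD, n = 2), a log2 fold change of -0.19 (SE 0.06, edgeR quasi-likelihood adjusted p = 0.0387) and a fold of 0.876. By the same rule 19.7% of the 14573 genes tested were called, and 9.61% of those tested were lower in TET1-CD. CD44 did not reach the fold change of 2 that the study required, which 3.77% of genes did with an adjusted p under 0.05. The call was lost without TET1-CD replicate 1 (adjusted p = 0.265) and without TET1-CD replicate 2 (adjusted p = 0.391).

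The standard transcript ENST00000263398, coding for 361 residues, carried most of the gene. It had 26203 and 23739 counts in EV, against 21065 and 22773 in TET1-CD, at 281 and 297 FPKM against 262 and 254 FPKM. Per library size the groups did not overlap, and both TET1-CD libraries were lower. Its log2 fold change was -0.17 (SE 0.05), with an edgeR adjusted p of 0.375 and a DESeq2 adjusted p of 0.0507. Its share of the gene's counts was 80.8% and 81.9% in EV, against 81.7% and 82.9% in TET1-CD. Since it is 4288 bases long and most of the other forms are shorter, it held only 47.1% to 51.4% of the gene's summed FPKM.

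The transcript with v10 alone, ENST00000434472 (429 residues), was the most counted variant form. It had 1823 and 1714 counts in EV, against 1631 and 1476 in TET1-CD, or 54.98 and 60.15 FPKM against 57.02 and 46.26 FPKM. The groups overlapped per library size, and the log2 fold change was -0.16 (SE 0.13, edgeR adjusted p = 0.749).

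The v8 to v10 transcript, ENST00000433892 (493 residues), is the form known from epithelial cells as CD44v8-10. It had 789 and 784 counts in EV, against 537 and 516 in TET1-CD. The EV libraries were alike in raw counts but differed in depth. Both TET1-CD libraries lay below both EV libraries, also per library size. FPKM values were 16.96 and 19.6 against 13.38 and 11.52. The log2 fold change was -0.56 (SE 0.13), with an edgeR adjusted p of 0.290 and a DESeq2 adjusted p of 0.00907.

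ENST00000415148, with v3 to v10, codes for the longest protein among the forms with counts, 699 residues. It is described after its values were seen, since it held under 1% of the gene's counts. It had 109 and 147 counts in EV, against 30.4 and 31.6 in TET1-CD, or 2.28 and 3.56 FPKM against 0.73 and 0.68 FPKM. The groups were well apart, with a log2 fold change of -2.05 (SE 0.35), an edgeR adjusted p of 0.246 and a DESeq2 adjusted p of 2.69e-04.

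ENST00000528086 is a short model of 580 bases with no annotated coding part, which runs from exons 1 to 3 into parts of v8 and v9. Most of its length is thus shared with the standard form. It had 1660.2 and 1109.7 counts in EV, against 1079 and 1331 in TET1-CD, at 141 and 109.7 against 106 and 117 FPKM. The EV libraries differed 1.5-fold from each other in raw counts, not scaled to library size, and the groups overlapped. Its log2 fold change was -0.17 (SE 0.14, edgeR adjusted p = 0.764).

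The remaining forms with at least 1% of the gene's counts in any library lacked variable exons. ENST00000425428, annotated as a target of nonsense-mediated decay and counted among the standard transcripts, joins exon 2 to exon 4. It had 438 and 489 counts in EV, against 733 and 550.1 in TET1-CD, higher in both TET1-CD libraries, with a log2 fold change of 0.49 (SE 0.26, edgeR adjusted p = 0.607). ENST00000531118, which retains an intron after exon 5, had 295 and 235 counts in EV, against 186 and 278 in TET1-CD. Its groups overlapped, with a log2 fold change of -0.18 (SE 0.20, edgeR adjusted p = 0.844).

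The largest change was in ENST00000525469. Its model has 2 exons and 705 bases, starts inside exon 16 and joins it to exon 18, leaving out the exon for the membrane-spanning segment, and it is annotated to code for 82 residues. It had 559.6 and 246 counts in EV, against 59.5 and 29.4 in TET1-CD, or 39.11 and 19.99 FPKM against 4.82 and 2.13 FPKM. The EV libraries differed 2.28-fold from each other in raw counts, not scaled to library size. Once scaled, the lower of them was 4.15-fold above the higher TET1-CD library. The log2 fold change was -3.09 (SE 0.58), which is 8.53-fold lower, with an edgeR adjusted p of 0.258 and a DESeq2 adjusted p of 9.05e-07. The value was 5.83-fold lower without EV replicate 1 and 14.0-fold lower without TET1-CD replicate 1. Its share of the gene's counts was 1.72% and 0.848% in EV, against 0.231% and 0.107% in TET1-CD. Most of its bases lie in exon 18, which the full-length forms share, so its estimate rests on how the authors' quantifier divided shared fragments, and the deposited values do not show how many fragments crossed the join.

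**Figure D2:**
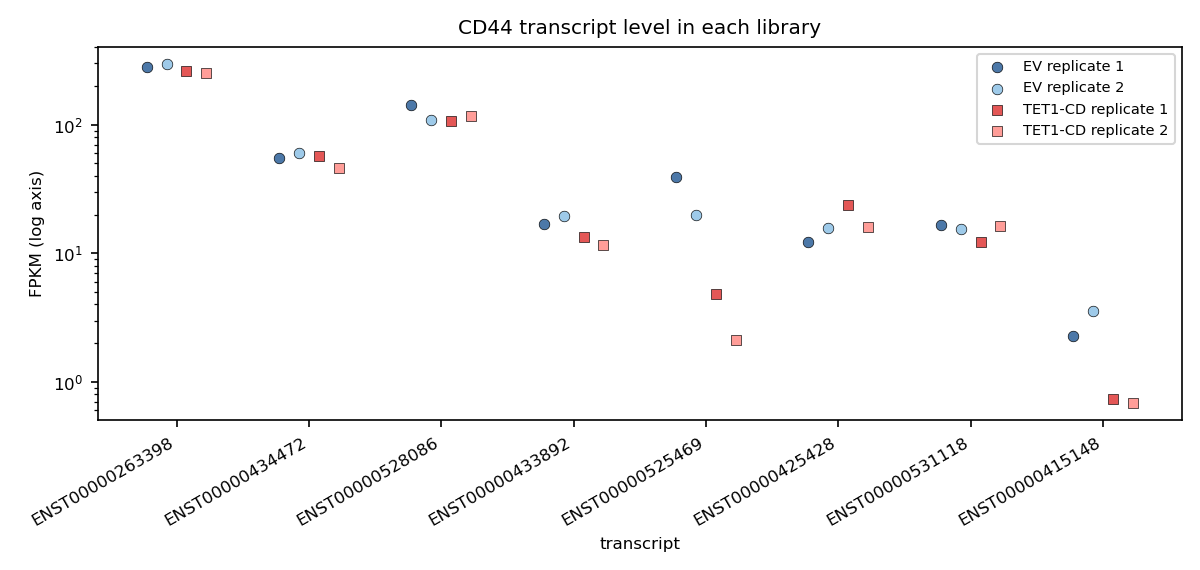
FPKM on a log axis for 8 CD44 transcripts in each library (blue circles EV, red squares TET1-CD). ENST00000263398 lies between 254 and 297 FPKM in all libraries, and ENST00000525469 and ENST00000415148 are the transcripts with the widest gap between the groups.

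Of the 42 transcripts, 20 passed the filter on low counts, and the 22 that did not held at most 30.99 counts in a library. edgeR called 0 of the 20 at an adjusted p of 0.05, where it called 1 of all 43213 transcripts tested (0.00231%). At an unadjusted p under 0.05 it found 5 of the 20, against 11.2% of all transcripts, and 4 of the 20 were lower with such a p, against 5.41% of all transcripts. These were ENST00000525469, ENST00000415148, ENST00000433892 and ENST00000263398, lower in TET1-CD, and ENST00000527326, higher. DESeq2 called 3 of the 20, all lower (ENST00000525469, ENST00000415148 and ENST00000433892), against 6.39% of all transcripts in either direction and 2.97% lower. On simulated counts DESeq2 called more unchanged transcripts than its threshold allows. The median log2 fold change of the 20 was -0.17, beside 0.00 over all transcripts, and 16 of the 20 values were below 0. The 20 belong to 1 gene, whose own log2 fold change was -0.19, and are not separate observations. Values per library size did not overlap between the groups for 11 of the 20, or 55%, against 44.4% of all transcripts tested. The spread between replicates was large for single transcripts, with a common biological coefficient of variation of 0.460 against 0.0564 for genes.

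ENST00000527326, a retained-intron model over exons 15 to 17 and part of exon 18, was the exception in direction. It had 17.9 and 13.3 counts in EV, against 36.5 and 62.1 in TET1-CD, a log2 fold change of 1.67 (SE 0.43, edgeR adjusted p = 0.312). The groups did not overlap, at counts that remained low. This transcript, too, was named after its values were seen.

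Whether a transcript changed differently from the rest of the gene was asked with edgeR's diffSpliceDGE, which compares each transcript's log2 fold change with that of the gene and takes 1 estimate of spread for all transcripts of a gene. ENST00000525469 fell by 2.91 on the log2 scale relative to the gene (SE 0.40, adjusted p = 5.02e-05). It was the only CD44 transcript called of 20, where 0.647% of 38773 transcripts were called. At an unadjusted p under 0.05 there were 3 of 20, against 3.08% of all. On simulated counts this test, too, called more transcripts without a planted change than its threshold allows. limma's diffSplice gave -3.01 (adjusted p = 1.09e-04), with 0.441% of transcripts called. Without EV replicate 1, the library in which it was highest, the value was -2.32 and the adjusted p 0.0643.

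For the gene as a whole the diffSpliceDGE adjusted p (Simes over its transcripts) was 1.31e-04, which ranked 7 of 9725 genes, of which 2.17% were called. Without ENST00000525469 the gene's adjusted p was above 0.99, and without EV replicate 1 or TET1-CD replicate 2 it was 0.175 and 0.118. The relative changes of the standard transcript (0.02, SE 0.12) and of the v10 transcript (0.02, SE 0.15) were near 0. Those of ENST00000415148 (-1.86, SE 0.60, edgeR adjusted p = 0.706), ENST00000433892 (-0.38, SE 0.20, edgeR adjusted p above 0.99) and ENST00000425428 (0.67, SE 0.21, edgeR adjusted p = 0.646) did not pass.

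**Figure D3:**
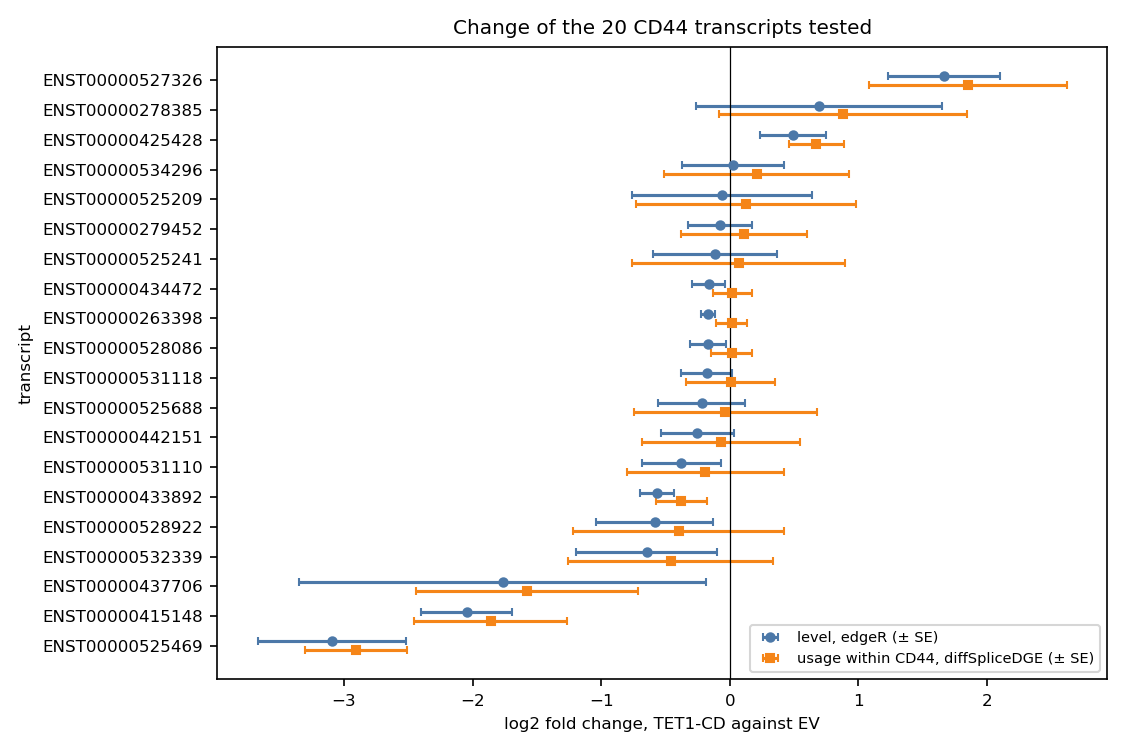
Log2 fold change of TET1-CD against EV (x axis) for the 20 CD44 transcripts tested (y axis), as a level by edgeR (blue circles) and relative to the gene by diffSpliceDGE (orange squares); bars are 1 SE. ENST00000525469 lies lowest at -3.09 and -2.91, and most transcripts lie within 1 unit of 0.

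Summed by form, the 7 standard transcripts had 26856 and 24411 counts in EV, against 21948 and 23520 in TET1-CD, and the 20 variant transcripts 4595 and 3983 against 3474 and 3529. The 15 others had 993.5 and 591 in EV and 347 and 431 in TET1-CD. All 3 sums were lower in both TET1-CD libraries once scaled to library size. Tested as features of the gene table, a test added after the data were seen, the variant sum had a log2 fold change of -0.27 (SE 0.06, edgeR adjusted p = 0.0107) and the standard sum of -0.16 (SE 0.06, adjusted p = 0.0784). The sum of the others had a fold of 0.501 (log2 SE 0.15, adjusted p = 0.00163), mostly through ENST00000525469. The difference between the variant and the standard sums was not itself tested in that fit. The variant sum lost its call without TET1-CD replicate 1 (adjusted p = 0.0577) and without TET1-CD replicate 2 (adjusted p = 0.229).

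As a share of the gene's counts, variant forms made up 14.2% in EV replicate 1 (95% exact binomial interval 13.8 to 14.5) and 13.7% in EV replicate 2 (13.3 to 14.1). The share was 13.5% in TET1-CD replicate 1 (13.1 to 13.9) and 12.8% in TET1-CD replicate 2 (12.4 to 13.2). These intervals cover counting error only, and those of EV replicate 2 and TET1-CD replicate 1 overlapped. The group means were 13.95% ± 0.30 in EV and 13.16% ± 0.45 in TET1-CD (SD, n = 2). The difference of -0.79 percentage points gave a two-sided exact permutation p of 0.333, the smallest that 2 against 2 libraries allow. By FPKM the share was 37.8% ± 1.2 in EV and 38.1% ± 0.2 in TET1-CD, so the groups overlapped and the direction turned. ENST00000528086, short and with v8 and v9 only in part, weighed heavily in that measure, with 19.0% to 23.7% of the gene's FPKM. Among protein-coding transcripts only, variant forms held 9.98% ± 0.52 of counts in EV, against 9.15% ± 0.94 in TET1-CD, and these groups overlapped.

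Within the variant forms the sets differed. The v10 set (2 transcripts) held 5.78% ± 0.22 of the gene's counts in EV, against 5.86% ± 0.68 in TET1-CD, and ENST00000528086 held 4.47% ± 0.91 and 4.51% ± 0.46. The groups overlapped for both. The v8 to v10 form held 2.57% ± 0.19 in EV and 1.98% ± 0.15 in TET1-CD, and the v3 to v10 form 0.422% ± 0.120 and 0.116% ± 0.002. Neither of these sets overlapped between the groups, with an exact permutation p of 0.333 each. The 14 other variant transcripts together held 0.710% ± 0.086 and 0.694% ± 0.084, which overlapped. Standard forms held 83.5% ± 1.0 in EV and 85.4% ± 0.3 in TET1-CD.

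**Figure D4:**
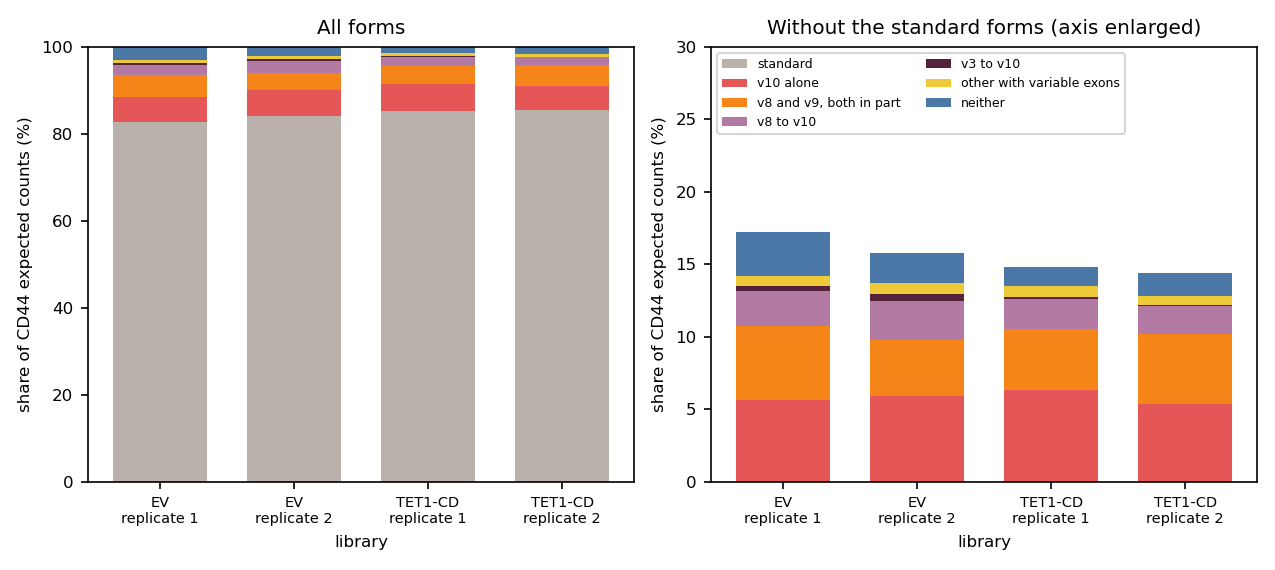
Share of CD44 expected counts in percent (y axis) held by each form in each library (x axis), with all forms on the left and, on an axis up to 30%, the forms other than standard on the right. Standard forms hold 82.8% to 85.6%, and the v8 to v10 and v3 to v10 segments are thinner in both TET1-CD libraries than in both EV libraries.

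Exon by exon, inclusion was taken as the FPKM of transcripts that hold an exon whole, over that plus the FPKM of transcripts that skip it. This measure was added after the data were seen and has no test beyond the permutation limit given above. ENST00000528086, which holds v8 and v9 in part, was counted on neither side for these 2 exons. It ends in v9 and so was on neither side for v10 either, but it counted as skipping v2 to v7. The percentages of v2 to v7 thus have other denominators than those of v8 to v10. v10 was included at 19.5% and 20.4% in EV and 19.3% and 17.1% in TET1-CD. v8 was included at 6.87% and 7.59% in EV and 5.57% and 5.06% in TET1-CD, and v9 at 6.87% and 7.51% against 5.49% and 5.06%. v3, with the heparan sulfate site, was at 1.67% and 2.13% against 1.38% and 1.24%. v6 was at 2.38% and 2.88% against 2.29% and 1.99%. v2 was at 0.05% in EV replicate 1 and 0 in the other libraries. By this measure each of v3 to v10 was lower in both TET1-CD libraries, but these exons share transcripts and are not separate observations. With ENST00000528086 counted as holding v8 and v9, inclusion of v8 was 31.6% and 26.8% in EV against 26.4% and 29.1% in TET1-CD, and that of v9 31.6% and 26.7% against 26.4% and 29.1%. The groups then overlapped, and both exons lay above v10, whose denominator leaves that transcript out.

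Among the constant exons, exon 17 was included at 90.7% and 95.4% in EV and 98.7% and 99.4% in TET1-CD, because ENST00000525469 is the 1 transcript that skips it. Exon 3 was at 97.7% and 97.0% in EV and 95.1% and 96.6% in TET1-CD. Exons 4 and 5 lay between 73.7% and 79.4% in all libraries, with overlapping groups, through the share of ENST00000528086, which skips both.

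**Figure D5:**
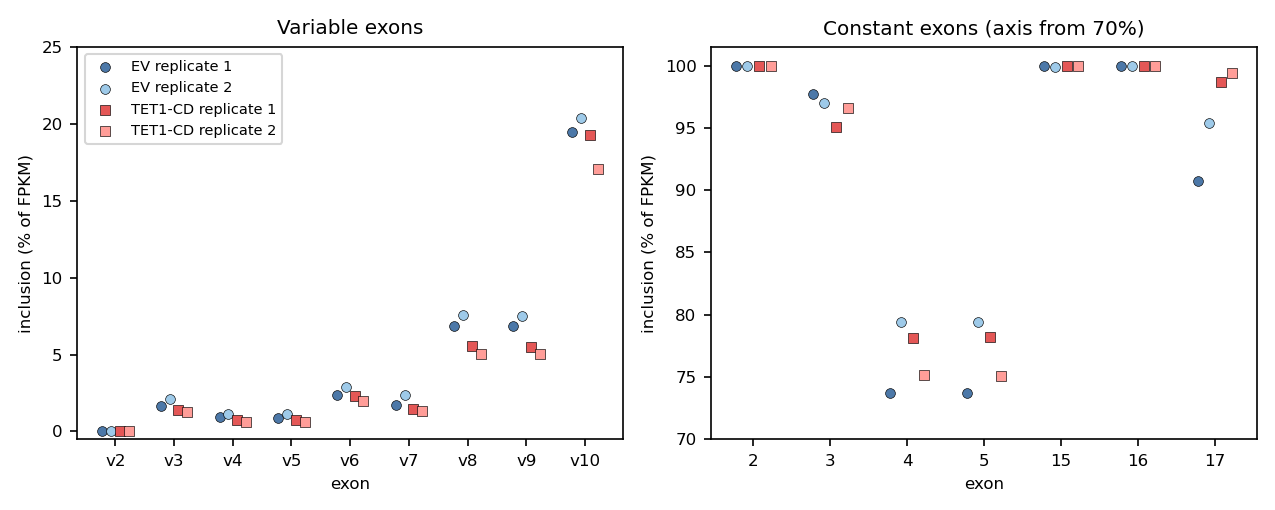
Inclusion in percent of FPKM (y axis) of the variable exons (left) and of the constant exons other than the first and the last (right, axis from 70%) in each library (blue circles EV, red squares TET1-CD), with ENST00000528086 left out for v8 and v9, which it holds in part. v10 lies at 17.1% to 20.4%, and exon 17 lies above 98% in both TET1-CD libraries and below 96% in both EV libraries.

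Most regulators of CD44 splicing did not pass the test, as was true of most genes tested. Of 30 splicing regulators, all tested, 1 rose (RBM10, log2 fold change 0.18, edgeR adjusted p = 0.0484) and 3 fell. These were RBFOX2 (-0.26, adjusted p = 0.0154), HNRNPH1 (-0.21, adjusted p = 0.0188) and TRA2A (-0.23, adjusted p = 0.0351) by edgeR, a count of 4 of 30 beside 19.7% of all genes. These calls were lost with either TET1-CD library left out, in fits with 1 library in that group. The share over all genes in those fits is not given here. The rise of RBM10 was also lost with DESeq2, limma-voom, the replicate block and no filter. Of the falls, DESeq2 called 2 where edgeR called 3, with the share over all genes again not given. The median of the list was -0.01 against 0.00 for all genes tested. ESRP1 had 16 and 12 counts in EV, against 17 and 15 in TET1-CD, and ESRP2 41 and 30 against 52 and 44, so both were low in all 4 libraries. Their edgeR adjusted p-values were 0.769 and 0.265.

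Genes for hyaluronan synthesis, binding and breakdown moved in both directions. Of 21 such gene symbols 12 were tested, and 2 rose and 4 fell, beside 10% and 9.61% of all genes, with a list median of -0.01. Fewer passed with either TET1-CD library left out, where the share over all genes is not given. HAS3, a hyaluronan synthase, had 1000 and 837 counts in EV, against 344 and 359 in TET1-CD and fell by 1.37 on the log2 scale (edgeR adjusted p = 3.84e-06). VCAN, the hyaluronan-binding proteoglycan versican, fell by 0.41 (edgeR adjusted p = 0.00896). TNFAIP6, which transfers heavy chains to hyaluronan, had 120 and 212 counts in EV, against 77 and 71 in TET1-CD and fell by 1.17 (edgeR adjusted p = 0.0223).

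A list of 14 genes held sheddases and gamma-secretase subunits, which cut CD44 outside and within the membrane, with the protease inhibitors TIMP1 and TIMP2 and the protease inducer BSG. Of these 12 were tested and 2 passed, both lower in TET1-CD, beside 9.61% of all genes (median -0.02). The count was smaller with either TET1-CD library left out, where the share over all genes is not given. ADAM17 had 1700.0 and 1459 counts in EV, against 1159 and 1321 in TET1-CD, with a log2 fold change of -0.33 (edgeR adjusted p = 0.00331). APH1B, a gamma-secretase subunit, had -0.46 (edgeR adjusted p = 0.0149).

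Of 14 cytoplasmic partners, all tested, 2 rose and 1 fell (median -0.01), beside 19.7% of all genes called either way. The calls of this list were lost with either TET1-CD library left out, where the share over all genes is not given. EZR, the ezrin that links CD44 to actin, rose by 0.19 (edgeR adjusted p = 0.0344) and SLC9A3R1, an ezrin-binding scaffold, by 0.28 (edgeR adjusted p = 0.00869). CD2AP, an adaptor of the actin skeleton, fell by 0.24 (edgeR adjusted p = 0.0282). DESeq2 called 2 of the list higher and 0 lower, so the call of CD2AP was lost there.

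Of 20 ligands and co-receptors 15 were tested, 4 rose and 6 fell (median -0.05), beside 10% and 9.61% of all genes. PODXL, a sialomucin of the cell surface, had 3265 and 2736 counts in EV, against 6212 and 6709 in TET1-CD and rose by 1.12 on the log2 scale (edgeR adjusted p = 6.81e-07). CD74, with which CD44 forms the receptor for MIF, had 88 and 97 counts against 326 and 363 and rose by 1.91 (edgeR adjusted p = 1.55e-05). VEGFA, which binds heparan sulfate-bearing CD44, had 3364 and 3018 against 1596 and 1827 and fell by 0.89 (edgeR adjusted p = 6.64e-06). Over the 5 lists 9 of 83 genes tested rose and 16 fell, against 10% and 9.61% of all genes. These totals were smaller with either TET1-CD library left out. The share over all genes in those fits is not given, so the loss cannot be read as particular to the lists.

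Among the protein-coding genes within 1 log2 unit of the level of CD44, the ribosomal protein genes RPL15 (distance 0.054) and RPL13 (0.074) were among the 3 whose pattern over the 4 libraries was most like that of CD44, by Euclidean distance of centred log2 CPM. The transcript of beta-catenin, CTNNB1, had 10119 and 8551 counts in EV, against 8001 and 9859 in TET1-CD, a log2 fold change of -0.05 (SE 0.06, edgeR adjusted p = 0.590).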

How the data were processed

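The 2 EV and the 2 TET1-CD libraries of T24 cells were made from total RNA, polyadenylated or rRNA-depleted per the labels and sequenced on an Illumina HiSeq instrument. The authors deposited, per transcript, expected counts (estimated fragments) and FPKM values, which correct for the length of the transcript and for sequencing depth. The submitters' processing notes list cutadapt 1.9.1, HISAT2 2.0.1, HTSeq 0.6.1, DESeq2 and hg19. The quantifier, the annotation release and the strand setting are not given in the sources used here, so fragments of CD44 and of its 2 antisense rows (at most 9 counts) cannot be told apart.

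Exon structures came from GENCODE release 44 mapped to GRCh37. Transcript spans equalled those of the files for 29 of 38 transcripts, and the length implied by FPKM was within 5% of the annotated one for 16 of 18 transcripts with an FPKM of at least 1. ENST00000263398, for one, spans 301 bases more in the files.

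Counts were rounded, summed per gene for gene tests, and fitted with edgeR 4.0.16 in R 4.3.3 (glmQLFit and glmQLFTest, TMM, filterByExpr, no block), over all genes or all transcripts, with Benjamini-Hochberg adjustment and a threshold of 0.05. Usage was tested with diffSpliceDGE. Shares were compared by an exact two-sided permutation test. Alternatives used DESeq2 1.42.0, limma 3.58.1 (voom, diffSplice, and limma-trend on log2 of FPKM plus 1), other scalings and filters, a replicate block and the omission of each library. Simulated counts were drawn for each gene or transcript on its own, without fragments shared between transcripts. No sign error occurred among the planted changes that were called, an outcome that large planted changes nearly fix in advance. DESeq2 on transcripts and diffSpliceDGE called more transcripts without a planted change than their threshold allows. For diffSpliceDGE, a planted change also shifts the relative change of the other transcripts of that gene.

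The members, the lists and the tests were chosen with earlier results of these data known, and the study had named CD44 from these libraries, so the gene's direction is not independent evidence. Transcripts were named where they held at least 1% of the gene's counts in any library, list genes as up to 3 with the smallest p per list plus ESRP1 and ESRP2, with TET1 as label check and the 3 genes most like CD44. CTNNB1, ENST00000415148 and ENST00000527326 were added after their values were seen. Some genes that this rule names are not reported here. PECAM1, an endothelial marker, was not listed in the files. The other endothelial markers summed to at most 0.33 FPKM.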

Additional observations from a re-analysis of the deposited data

How the results depend on the processing

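The fall of CD44 (log2 fold change -0.19) kept its direction under all 12 alternatives, between -0.23 and -0.16 as each library was left out. It lost its call without either TET1-CD library, and without ENST00000525469 (-0.18, adjusted p = 0.0557), an alternative chosen after seeing the data. The count of CD44 transcripts called was 0 by edgeR, 3 with DESeq2, 1 without a filter and 0 with any 1 library left out. The count of CD44 transcripts with changed usage was 1, and 0 to 1 with a library left out, the 0 being without EV replicate 1. It was 0 without ENST00000525469, by construction. The usage value of that transcript ranged from -3.59 to -2.32 with a library left out. The share difference of variant forms (-0.79 percentage points) was 0.32 by FPKM. It ranged from -1.11 to -0.47 with a library left out. The count of list genes called was 25, and 9 (without TET1-CD replicate 1), 10 (without TET1-CD replicate 2) and up to 37 with an EV library left out. The cause of these shifts was not tested.

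Values near 0 changed sign. With a library left out, the log2 fold changes of ENST00000528086 ranged from -0.33 to 0.0092 and of ENST00000531118 from -0.40 to 0.022. The usage values ranged from -0.18 to 0.23 for ENST00000528086, from -0.10 to 0.13 for ENST00000434472 and from -0.25 to 0.24 for ENST00000531118. Without ENST00000525469 the usage values of ENST00000263398, ENST00000528086 and ENST00000531118 were -0.000395, -0.000631 and -0.00867. That of ENST00000531118 was -0.00477 with limma diffSplice.

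With the replicate number as a block, CD44 had a log2 fold change of -0.19 (edgeR adjusted p = 0.0169) and ENST00000525469 a usage value of -2.94 (adjusted p = 0.00818). The usage value of ENST00000531118 was then -0.00724, and the standard sum passed (adjusted p = 0.0497). 0 CD44 transcripts were called and 26 list genes. The deviations of same-numbered libraries had a correlation of 0.0071 over genes. Noise between libraries also lowers this value, so it cannot settle whether equal numbers mark a shared preparation. With 2 libraries a group, edgeR called neither the 8.53-fold lower ENST00000525469 nor the 4.13-fold lower ENST00000415148.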
